A study of Mus musculus with 14 samples.

Results

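Tnfrsf4 (OX40), Tnfrsf18 (GITR), Tnfrsf9 (4-1BB) and Tnfrsf1b (TNFR2) are 4 members of the TNF receptor family that act as costimulators on T cells. Their chromatin was taken from 3 windows on chromosome 4 of the mouse build mm39, defined by coordinates alone. Tnfrsf4 and its neighbour Tnfrsf18 share a window of 50 kb, chr4:156080000-156130000. Tnfrsf9 has a window of 60 kb, chr4:150990000-151050000, and Tnfrsf1b a window of 65 kb, chr4:144925000-144990000. The windows held 36 of the 37573 regions obtained by merging the H3K27ac peaks of all libraries, 7 at Tnfrsf4 and Tnfrsf18, 15 at Tnfrsf9 and 14 at Tnfrsf1b. No annotation of mm39 was used, so a peak in a window is not assigned to the gene that names the window, and whether each window holds the whole of its gene was not checked.

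The study mapped 2 histone marks by CUT&Tag in regulatory T cells, a method in which an antibody directs a transposase to marked chromatin so that the cut fragments can be sequenced. Knockout chimeras are labelled Foxp3YFP-Slc31a1△;wt, and controls Foxp3YFPcre;wt. Both genotypes carry the Foxp3-driven YFP-Cre, which acts in cells that express Foxp3, and the knockouts in addition lack Slc31a1, the gene of the copper importer CTR1, in those cells. The labels give no age and no treatment. H3K27ac, a mark of active promoters and enhancers, was listed for 3 knockout and 3 control libraries, and H3K27me3, the repressive mark of Polycomb complexes, for 2 knockout and 2 control libraries. The comparison asks whether the receptor loci differ in either mark between the genotypes. Within a mark each library carries a chimera number of its own, 2 to 4 for H3K27ac and 1 and 2 for H3K27me3, so that chimera 2 of each genotype gave a library of both marks. The labels do not say how many animals stand behind a chimera number, and the p-values measure the spread between libraries. The 4 IgG samples and the targeted gene were not analysed here, and neither were marker genes that would check the sorted cell type, since all of these need data or an annotation that was not used.

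Several properties of the lists touch every value. The H3K27ac lists held 28289, 24154 and 21326 peaks in knockouts 1 to 3, against 32012, 27986 and 29748 in controls 1 to 3. The depth that fold and p of the peaks imply came to 11.0, 10.9 and 9.10 fragments per kb for knockouts and to 12.4, 8.49 and 9.02 for controls. The library used as background had 20.6 to 20.7 fragments per kb for every H3K27ac knockout, and 16.1, 13.1 and 13.1 for the controls, so background library and genotype cannot be told apart in any comparison below. Of the H3K27me3 lists, that of control 1 stood apart: it held 7512 peaks with −log10 p of 2.02 to 7.21, while the knockouts held 36436 and 57728 peaks and control 2 held 43945. The lowest −log10 p in those other lists was 9.0049 to 9.0163, above the highest of control 1. Their highest values were 88.9 and 114 in the knockouts and 95.2 in control 2. The lists were thus cut at different thresholds, and control 1 also lacks peaks as strong as those of the others. At the cut of the other lists control 1 would hold no peak at all, so it is not comparable with the rest.

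These receptors are transmembrane proteins with cysteine-rich outer domains that bind trimeric ligands of the TNF family. Their tails recruit TRAF adaptors, which lead to NF-kappaB and other signals that favour survival and division of activated T cells. Regulatory T cells are known for carrying high levels of OX40, GITR and TNFR2 at rest and for gaining 4-1BB after activation. Acetylation of H3K27 marks the promoters and enhancers in use at such genes, and H3K27me3 marks silenced ones.

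The 4 genes start from promoters of unlike composition, and 4 of their proximal promoters are shown here because the windows were drawn around these genes. The sequences are from RefSeq on GRCm38.p6, a build other than that of the peaks, so no peak is placed on them. Each runs 5′ to 3′ along the strand of the gene over the 250 bases before its start. Capitals mark matches to the motifs searched on both strands.
Tnfrsf4, chr4:156013445-156013694, plus strand: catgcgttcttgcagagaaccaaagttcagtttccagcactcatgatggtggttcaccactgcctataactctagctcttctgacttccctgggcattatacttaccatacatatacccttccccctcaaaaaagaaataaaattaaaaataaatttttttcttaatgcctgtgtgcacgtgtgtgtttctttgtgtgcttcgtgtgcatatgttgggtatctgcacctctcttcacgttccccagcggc
Tnfrsf18, chr4:156026072-156026321, plus strand: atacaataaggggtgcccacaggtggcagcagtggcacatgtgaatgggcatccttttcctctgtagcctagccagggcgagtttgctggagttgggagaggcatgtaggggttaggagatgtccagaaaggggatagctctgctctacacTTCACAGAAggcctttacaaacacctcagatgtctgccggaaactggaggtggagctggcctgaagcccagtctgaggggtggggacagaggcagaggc
Tnfrsf9, second listed start, chr4:150927749-150927998, plus strand: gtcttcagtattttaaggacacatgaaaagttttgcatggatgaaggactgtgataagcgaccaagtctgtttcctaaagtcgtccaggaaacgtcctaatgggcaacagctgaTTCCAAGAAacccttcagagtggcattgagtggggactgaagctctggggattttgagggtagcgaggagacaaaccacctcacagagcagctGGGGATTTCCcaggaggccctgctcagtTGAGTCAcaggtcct
Tnfrsf1b, chr4:145246871-145247120, minus strand: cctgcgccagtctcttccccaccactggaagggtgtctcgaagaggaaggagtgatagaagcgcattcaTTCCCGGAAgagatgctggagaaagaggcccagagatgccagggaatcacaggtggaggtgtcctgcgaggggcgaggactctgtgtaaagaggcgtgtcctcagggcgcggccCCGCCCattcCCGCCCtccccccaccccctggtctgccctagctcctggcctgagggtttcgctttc

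The share of G and C was 42.8% at Tnfrsf4, 56.0% at Tnfrsf18, 49.6% at the second start of Tnfrsf9 and 62.8% at Tnfrsf1b, against a median of 52.4% over 32851 RefSeq promoters of the same length. CpG pairs numbered 5, 2, 4 and 12 in the same order, against a median of 6. Tnfrsf1b thus has the promoter richest in CpG of the 4, and Tnfrsf18 the poorest. The second Tnfrsf9 start holds a kappaB match (searched as GGG, 2 bases of any kind and TTTCC, in 1.41% of all promoters) from base −43 to −34, counted back from the start. It also holds an AP-1 match (TGANTCA, in 6.75%) from −15 to −9 and a STAT match (TTCNNNGAA, in 7.02%) from −136 to −128. Tnfrsf18 has a STAT match from −99 to −91. Tnfrsf1b has a STAT match from −181 to −173 and 2 GC boxes (GGGCGG, in 32.7%), read on the opposite strand. The first listed start of Tnfrsf9, not shown, has 43.2% G and C and 1 GC box match. These letters held no match to RUNX (TGTGGT, in 14.0%) or forkhead (TGTTTAC, in 3.17%) motifs at any of the 4 genes, and none to any searched motif at Tnfrsf4. None of the listed motifs overlap each other in the printed sequences. A match is a description of letters, not of a bound site.

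All 3 windows carried H3K27ac peaks in all 6 libraries. The exact permutation test of covered length per window cannot go below 0.1 with 3 against 3 libraries, so it could not pass 0.05. In the limma comparison of 10 kb bins, no tested bin of the windows passed an adjusted p of 0.05. H3K27ac peaks covered on average 62.9% of the Tnfrsf4 and Tnfrsf18 window in knockouts and 56.6% in controls. At Tnfrsf9 the averages were 29.4% in knockouts and 25.2% in controls, and at Tnfrsf1b 54.4% in knockouts and 61.9% in controls. The means of knockouts were thus the higher ones at Tnfrsf4, Tnfrsf18 and Tnfrsf9 and the lower ones at Tnfrsf1b, with libraries of both genotypes overlapping in every window.

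**Figure D1:**
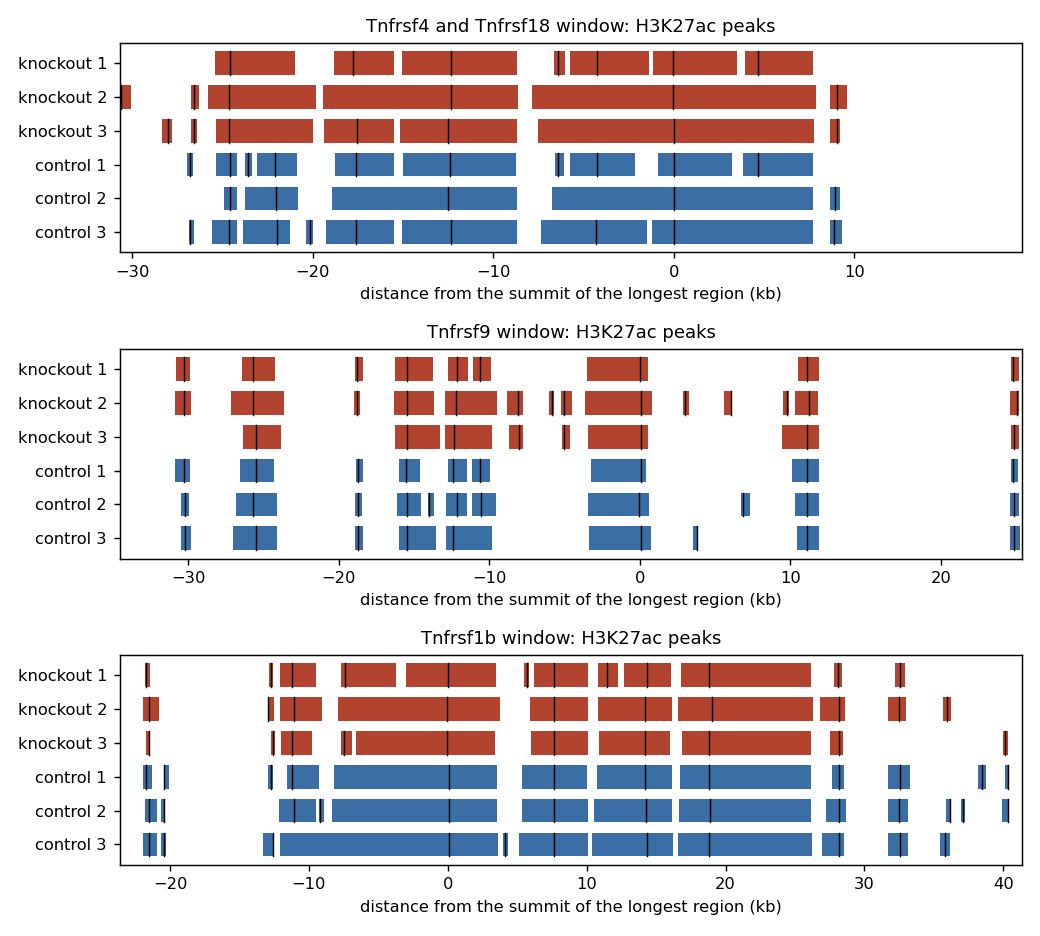
H3K27ac peaks of each library in the 3 windows, with distance in kb from the summit of the longest region on the x axis, 1 row for each library and knockouts above controls. Bars are peaks and black lines their summits. The wide blocks recur in all 6 libraries, and at the left of the Tnfrsf4 and Tnfrsf18 window each knockout has 1 unbroken peak where the controls have 2 or 3.

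At Tnfrsf4 and Tnfrsf18, H3K27ac peaks covered 27571, 34443 and 32394 bases in knockouts 1 to 3, against 25746, 28841 and 30334 in controls 1 to 3. Knockouts 2 and 3 were above every control, and knockout 1 lay between controls 1 and 2. The means were 31469 ± 3528 bases in knockouts and 28307 ± 2340 in controls, a difference of 3162 bases (SD, n = 3 each, two-sided exact permutation p = 0.3). With 3 against 3 libraries this test cannot go below 0.1. Without knockout 2 the difference was 1676 bases, without control 1 it was 1882, and without knockout 1 it was 5112.

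At Tnfrsf9 the covered length was 14789, 21061 and 17013 bases in knockouts and 13599, 15615 and 16234 bases in controls. Knockouts 2 and 3 were again the 2 highest libraries, and knockout 1 fell between controls 1 and 2. Knockouts averaged 17621 ± 3180 bases and controls 15149 ± 1378 bases, a difference of 2472 bases (SD, n = 3 each, exact permutation p = 0.4). Leaving out knockout 2 left 752 bases of it, and leaving out knockout 1 gave 3888 bases.

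At Tnfrsf1b peaks covered 33629, 39068 and 33400 bases in knockouts and 38242, 39949 and 42520 bases in controls. Knockouts 1 and 3 were below every control, while knockout 2 was above control 1. The averages were 35366 ± 3208 bases in knockouts and 40237 ± 2153 in controls, a difference of -4871 bases (SD, n = 3 each, exact permutation p = 0.2). The difference stayed between -6723 and -3730 bases when any 1 library was left out.

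The order of the means was the same for the share of all bases under peaks of a library. Tnfrsf4 and Tnfrsf18 took 654, 730 and 860 ppm of these bases in knockouts and 594, 682 and 705 in controls. Tnfrsf9 took 351, 446 and 452 ppm in knockouts and 314, 369 and 377 in controls. Tnfrsf1b took 798, 828 and 887 ppm in knockouts and 882, 945 and 989 in controls. On this scale too the genotypes overlapped in every window, at Tnfrsf1b by only 1 pair of libraries, knockout 3 and control 1.

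**Figure D2:**
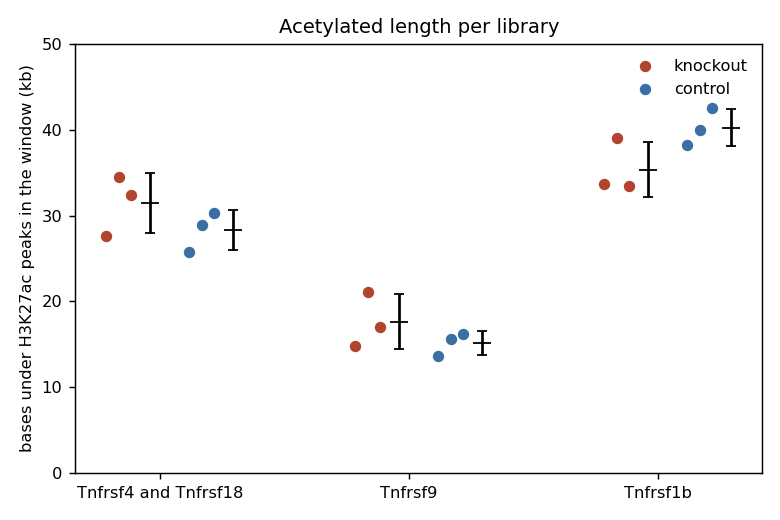
Bases under H3K27ac peaks in each window (y axis, in kb), with 1 point for each library, knockouts left of controls, and the mean with its SD (n = 3 each). Knockout means are above control means at Tnfrsf4 with Tnfrsf18 and at Tnfrsf9 and below at Tnfrsf1b, and the points of the genotypes overlap in all 3 windows.

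Most acetylated bases of the Tnfrsf4 with Tnfrsf18 and the Tnfrsf1b windows were common to every library. Of the bases under a peak in any H3K27ac library, 69.3% lay under a peak in all 6 at Tnfrsf4 and Tnfrsf18, 68.1% at Tnfrsf1b and 49.1% at Tnfrsf9, against 41.7% over the genome. Bases covered in all 3 knockouts and no control came to 295 at Tnfrsf4 and Tnfrsf18, 129 at Tnfrsf9 and 0 at Tnfrsf1b. Bases covered in no knockout and all 3 controls came to 832 at Tnfrsf1b and 0 in the other windows.

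Of the 36 merged regions, 15 (41.7%) had a peak in every H3K27ac library, 3 at Tnfrsf4 and Tnfrsf18, 6 at Tnfrsf9 and 6 at Tnfrsf1b. Over the genome 34.9% of regions did. No region was found in all knockouts and no control, against 0.809% of regions over the genome. Found in no knockout and all 3 controls was 1 region, at Tnfrsf1b, against 2.66% over the genome. Covered length was above all controls in every knockout at 2 regions, where the background is 6.10% of regions, and below all controls at 4 regions, where it is 7.59%. The 4 were all at Tnfrsf1b, and the 2 were 1 each at Tnfrsf4 with Tnfrsf18 and at Tnfrsf9. At Tnfrsf1b these were 4 of 14 regions, and whether that share departs from the genome was not tested.

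The Tnfrsf4 and Tnfrsf18 window was carried by 3 long regions. The longest, chr4:156102808-156118555, spans 15748 bases, longer than 99.4% of merged regions. Its covered length was 13464, 15748 and 15294 bases in knockouts and 12114, 14476 and 14846 in controls, with the genotypes overlapping. It holds the summit with the highest mean −log10 p of the window, within 38 bases of each other in all 6 libraries, at 156110671 to 156110709. There the fragments piled up to 484, 845 and 538 in knockouts and to 515, 477 and 657 in controls, over local backgrounds of 55.4, 61.4 and 50.3 fragments in knockouts and 58.6, 33.6 and 37.1 in controls. A neighbouring summit at 156106460 was taller in knockout 1, with 548 fragments, and in control 1, with 586. By the authors' −log10 p the peak with its summit at 156110671 to 156110709 ranked above at least 99.4% of the peaks of its list in every library. The next region, chr4:156091238-156102081, was covered over 9681, 10844 and 10334 bases in knockouts and 9519, 10216 and 10140 in controls.

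The third region, chr4:156084898-156090843, was the one where every knockout exceeded every control, with 4426, 5946 and 5379 bases in knockouts against 3771, 3619 and 4377 in controls. The gap between the lowest knockout and the highest control was small, 4426 bases against 4377. Each knockout list has 1 unbroken peak there, whereas control 2 has 2 peaks and controls 1 and 3 have 3 each. A summit at 156086068 to 156086128 was shared by all 6 libraries, with 144, 269 and 258 fragments in knockouts and 140, 256 and 321 in controls. The fragments at this summit thus overlapped between the genotypes. The local background read back at the same summit did not overlap: it was 26.6, 34.4 and 26.9 fragments in knockouts and 41.6, 67.9 and 78.4 in controls. Peak length is called against that background, whose part in the longer knockout peaks was not tested. A short region at chr4:156119343-156120271 had 0, 929 and 540 bases in knockouts and 0, 530 and 662 in controls, present in 2 libraries of each genotype. The other 3 regions of the window were 555 to 659 bases long, and each lacked a peak in at least 2 libraries.

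The Tnfrsf9 window held more and shorter regions, the longest of 4432 bases. That region, chr4:151020952-151025383, was covered over 4042, 4432 and 3942 bases in knockouts and 3653, 4028 and 4132 in controls. The next in covered length, chr4:151011589-151015053, had 2513, 3465 and 3129 bases in knockouts and 2456, 3045 and 3051 in controls. A region at chr4:150997422-151000902 had 2248, 3481 and 2524 bases in knockouts and 2258, 2763 and 2945 in controls. In all of these the genotypes overlapped.

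The region chr4:151008237-151011260 at Tnfrsf9 was longer in every knockout, with 2518, 2648 and 2985 bases in knockouts against 1400, 2008 and 2485 in controls. Its summit, at 151009053 to 151009125, had 168, 208 and 117 fragments in knockouts and 199, 131 and 178 in controls, so that the heights overlapped while the lengths did not. Its local background was 25.6, 28.1 and 23.0 fragments in knockouts and 61.7, 13.6 and 14.4 in controls. Control 1, with the shortest peak, had the highest background, and the other controls had the lowest backgrounds. The other regions of the window that lacked a peak in some library numbered 9 and spanned 259 to 1073 bases. Among them, chr4:151015745-151016800 was listed only in knockouts 2 and 3, over 1056 and 903 bases, and chr4:151019351-151020065 likewise only in those libraries, over 715 and 538 bases. These last regions were picked out after their values were seen.

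The Tnfrsf1b window was carried by 4 regions that together span most of its middle. The longest, chr4:144936435-144952405, has 15971 bases and was covered over 13061, 14703 and 13058 bases in knockouts and 14056, 14928 and 15713 in controls. The second, chr4:144965234-144974903, had 9371, 9670 and 9297 bases in knockouts and 9426, 9457 and 9607 in controls. Both had libraries of the genotypes overlapping, and in the second the means differed by less than 1 SD of either genotype.

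The Tnfrsf1b summit with the highest mean −log10 p lay in chr4:144953773-144958735, a region that was shorter in every knockout, with 4243, 4139 and 4080 bases in knockouts against 4711, 4760 and 4963 in controls. Its summits fell within 5 bases of each other in all 6 libraries, at 144956283 to 144956288. The fragments there numbered 288, 428 and 283 in knockouts and 355, 311 and 354 in controls, as raw fragments of libraries that differ in depth. Local backgrounds were 30.9, 31.8 and 26.0 in knockouts and 33.9, 25.2 and 25.4 in controls. Height and background thus overlapped between the genotypes where length did not. The right edge of the peak lay between 144958669 and 144958735 in every library. The left edge reached 144953773 to 144953959 in controls, whereas the main peak began at 144954796, 144954565 and 144954639 in knockouts. Knockout 1 has a further short peak to the left of its main peak, at 144954093 to 144954443, which is counted in its covered length.

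Next to it, chr4:144958977-144964861 was covered over 4869, 5365 and 5132 bases in knockouts and 5382, 5628 and 5885 in controls. Its summit had 204, 255 and 151 fragments in knockouts and 322, 199 and 249 in controls. Towards the right end of the window, chr4:144980284-144981909 had 741, 1277 and 0 bases in knockouts and 1561, 1492 and 1487 in controls. Knockouts 1 and 2 had 93 and 90 fragments at its summit over backgrounds of 42.1 and 42.9, and knockout 3 had no peak. In controls the summit had 158, 88 and 122 fragments over 69.4, 30.4 and 30.3. The region without a knockout peak, chr4:144927940-144928522, was short and weak: it covered 350, 331 and 365 bases in controls, with 33, 20 and 25 fragments at its summit. A peak missing from a list is one that did not reach the threshold there, and is not shown to be without acetylation.

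**Figure D3:**
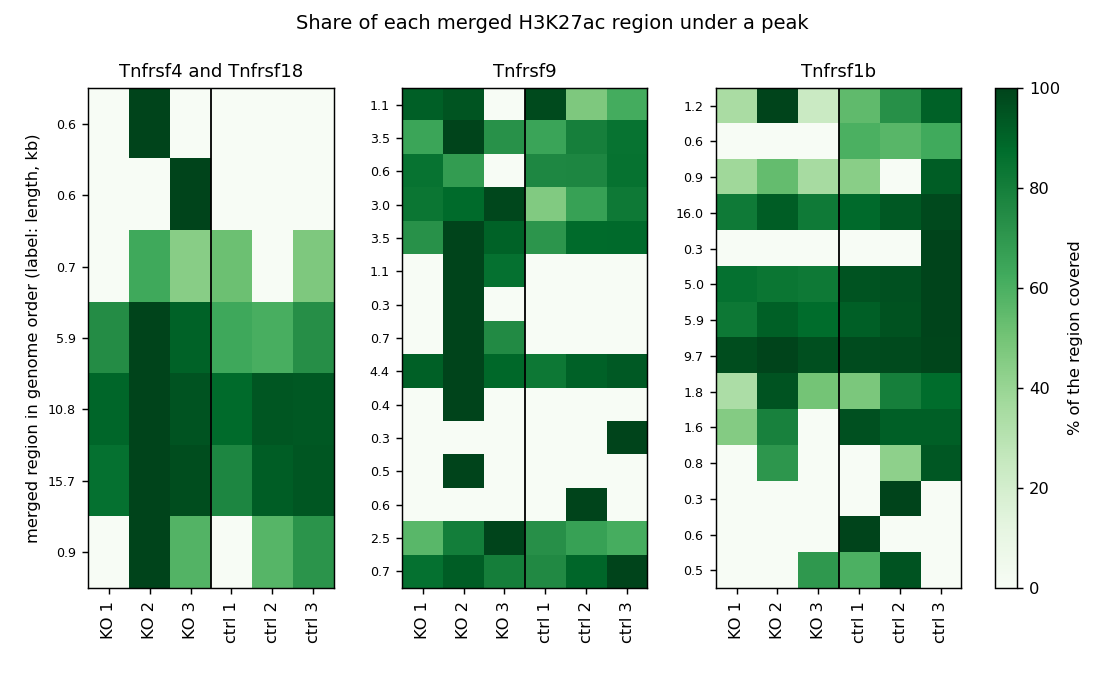
Share of each of the 36 merged H3K27ac regions that lies under a peak (colour, in percent), with 1 column for each library, knockouts left of controls, and regions in genome order down the page, labelled by length in kb. The long regions are covered in every column, and the white cells, where a library has no peak, fall in short regions such as the one at Tnfrsf1b that is white in all knockouts.

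Some sites held a summit of all 6 libraries. The rule that links summits limits their spread, so the spread is not a measure of agreement. Linking summits up to 200 bases apart, a comparison added after the data were seen, gave 15 such sites, 3 at Tnfrsf4 and Tnfrsf18, 6 at Tnfrsf9 and 6 at Tnfrsf1b, spread over 5 to 319 bases each. To set libraries of different depth side by side, height and local background were divided by the genome-wide pileup of the library, which was 2.55, 3.05 and 2.40 fragments in knockouts and 2.88, 2.09 and 2.11 in controls. On this scale the summit height was below all controls in every knockout at 4 of the 6 sites of Tnfrsf1b, and at none of the 9 sites of the other windows, where the genome has 10.3% of 8803 shared sites. It was above all controls at none of the 15 sites, where the genome has 3.94%. Divided instead by fragments per kb, the heights at Tnfrsf1b were below at 2 sites, so the count rests on the scale. The scales differ by the fragment length, taken as the narrowest peak of each list. That was 232, 279 and 264 bases in knockouts 1 to 3 and 232, 246 and 234 in controls 1 to 3. A longer fragment length lowers the height over genome-wide pileup relative to the height over fragments per kb.

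The 4 sites lie, in genome order, in regions of 15971, 5885, 9670 and 1833 bases, and none lies in the shorter regions of the window. At 144948567 to 144948679, in the longest region, the height was 107, 123 and 100.3 times the genome-wide pileup in knockouts and 129, 136 and 164 times in controls. At 144962856 to 144962956 it was 79.9, 83.7 and 62.8 times in knockouts and 112, 95.3 and 118 times in controls. At 144967427 to 144967631 it was 107, 123 and 86.99 times in knockouts and 146, 141 and 171 times in controls. The weakest of the 4, at 144976745 to 144976816, had 27.4, 25.6 and 19.98 times in knockouts and 46.2, 33.5 and 52.6 times in controls. The site with the highest mean −log10 p, at 144956283 to 144956288, was not among them: it had 113, 141 and 118 times in knockouts and 123, 149 and 168 times in controls, with the genotypes overlapping. Local background on the same scale was below all controls in every knockout at 3 of the 15 sites, where the genome has 14.0%, and above at none, where the genome has 9.75%. The 3 were the left site of Tnfrsf4 and Tnfrsf18, with 10.4, 11.3 and 11.2 times in knockouts and 14.5, 32.5 and 37.1 times in controls, and the sites at 144962856 and 144976745 of Tnfrsf1b. Divided by fragments per kb, background was below at 2 sites and above at 1, the site at 156110671.

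**Figure D4:**
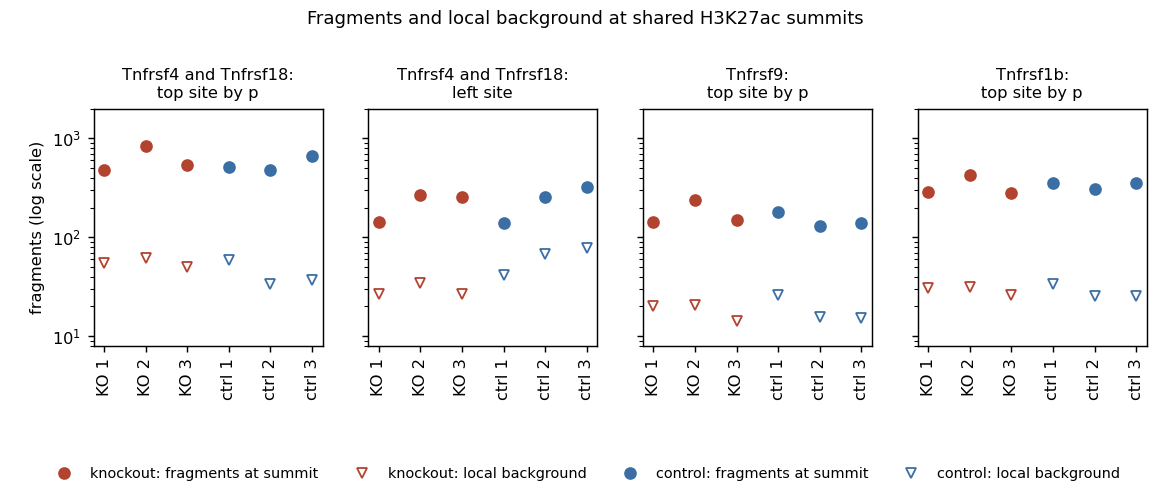
Fragments at the summit (filled circles) and local background (open triangles) of 4 H3K27ac sites shared by all libraries, the top one of each window by mean −log10 p and the left site of Tnfrsf4 and Tnfrsf18, as raw fragments on a log axis, with 1 position for each library and knockouts left of controls. Summit heights of the genotypes overlap in all 4 panels, and the backgrounds do so in every panel except that of the left site of the Tnfrsf4 and Tnfrsf18 window, where knockouts have 26.6 to 34.4 and controls 41.6 to 78.4 fragments.

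Across the genome, covered length in bins of 10 kb was compared with limma on log2(bases + 100), with Benjamini-Hochberg adjustment over 19295 bins. The windows touch 18 bins, of which 17 were tested, and none passed an adjusted p of 0.05, where 2.83% of all bins did, 2.25% (435) as lower and 0.580% (112) as higher in knockouts. At an unadjusted p under 0.05 there were 3 of 17, where the genome has 16.8%. The bin not tested, from 156120001, held 271 bases in knockout 2 and 4 in control 3. Covered length in a bin cannot exceed 10000 bases, and some window bins came near that, so they had little room to rise. The bin from 144940001, for example, had 9603, 9742 and 10000 bases in controls.

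The log2 change at Tnfrsf1b was negative in all 7 bins, with a median of -0.17 and a range of -1.50 to -0.07, against a median of -0.05 over all bins. At Tnfrsf4 and Tnfrsf18 it was positive in 3 of 4 bins, from -0.00 to 0.37, and at Tnfrsf9 in 4 of 6, from -0.19 to 0.57. Some of these signs turned under the 13 alternatives with bins of this size: in 2 of 7 bins at Tnfrsf1b, 2 of 4 at Tnfrsf4 and Tnfrsf18, and 4 of 6 at Tnfrsf9. At Tnfrsf1b the bin from 144930001 became 0.05 without control 3, and the bin from 144970001 became 0.0036 without knockout 1. Neighbouring bins share libraries and often a region, so they are not independent of each other. Non-overlap of the genotypes was seen in 1 bin with knockouts above, at Tnfrsf4 and Tnfrsf18, where 9.64% of tested bins show it. It was seen in 3 bins with knockouts below, all at Tnfrsf1b, where 12.4% of tested bins show it.

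The lowest p at Tnfrsf1b belonged to its last bin, chr4:144980001-144990000, with 741, 1836 and 345 bases in knockouts and 2433, 2552 and 2231 in controls. All knockouts were below all controls, and the change was -1.50 ± 0.422 (SE) on the log2 scale, with a limma adjusted p = 0.124. The adjusted p ranged from 0.0620 to 0.320 over the alternatives tried. The first bin of the window, chr4:144920001-144930000, which begins before it and was picked out after its values were seen, had 1162, 2135 and 984 bases in knockouts and 2063, 2006 and 2571 in controls, a change of -0.69 ± 0.232 (limma adjusted p = 0.191). Between these outer bins, the 5 bins with the long regions changed by -0.23 to -0.07. The changes on the log2 scale were thus larger in the outer bins, while in bases the bins from 144950001, with means of 6867 in knockouts and 7956 in controls, and from 144940001, with 8812 in knockouts and 9782 in controls, differed more than the first bin, with 1427 in knockouts and 2213 in controls.

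At Tnfrsf4 and Tnfrsf18 the lowest p was in the first bin, chr4:156080001-156090000, with 4426, 6079 and 5525 bases in knockouts and 4113, 3619 and 4314 in controls. The change was 0.37 ± 0.154 (limma adjusted p = 0.293, 0.0882 to 0.582 over the alternatives). At Tnfrsf9 it was in chr4:151010001-151020000, with 3319, 6372 and 5830 bases in knockouts and 2456, 3470 and 4074 in controls. Here knockout 1 lay below 2 controls, and the change of 0.57 ± 0.297 had a limma adjusted p = 0.405 (0.0823 to 0.684).

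**Figure D5:**
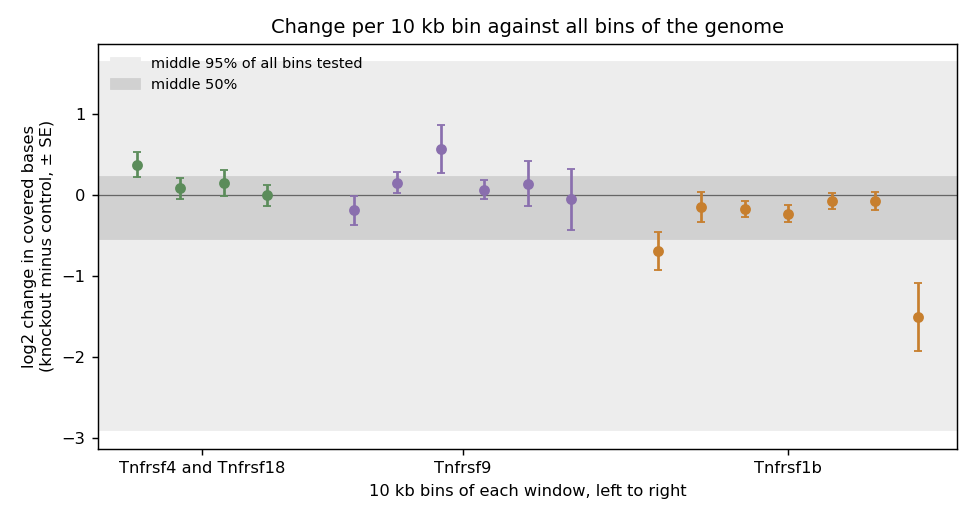
Log2 change in covered bases, knockout minus control, with its SE, for the 17 tested bins of 10 kb in the 3 windows. Grey bands hold the middle 95% (-2.91 to 1.64) and the middle 50% (-0.55 to 0.22) of all 19295 bins. The changes shown are all negative at Tnfrsf1b and mostly positive in the other windows, every bin lies within the wide band, and no bin passed the adjusted threshold.

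No H3K27me3 peak was listed in any of the 3 windows. The 2 knockout and the 2 control lists all had 0 peaks and 0 bases in each of the 3 windows, so that there was no difference to test. The list of control 1, with no −log10 p above 7.21 anywhere, adds little to this. At Tnfrsf4 and Tnfrsf18 the nearest peak lay 11.5 and 11.3 kb from the window in knockouts and 211 and 10.1 kb in controls, the larger distance being that of the short list of control 1. At Tnfrsf9 it lay 57.7 and 13.6 kb away in knockouts and 81.8 and 9.99 kb in controls. At Tnfrsf1b the nearest peak was much farther off, 1210 and 481 kb in knockouts and 3180 and 511 kb in controls. No bin of the windows was therefore among the 21034 bins tested for H3K27me3 with limma, of which the knockouts were called lower at 0.0428% and higher at 0.257%. That fit includes control 1: the median log2 change over all its bins was 0.78, and -0.14 without control 1. These shares are thus not a sound measure of a genotype difference. A list without a peak gives no depth for the window, so H3K27me3 below the threshold of the peak caller would not be seen.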

How the data were processed

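H3K27ac and H3K27me3 CUT&Tag peak lists of 10 libraries were used as deposited. Per the submitters' processing notes, the reads were processed with Bowtie2 2.2.4, deepTools 3.5.1, MACS2, ChIPseeker 1.30.3 and HOMER 4.11 on mm39, and the settings are not given in the sources used here. Calling was per sample, since every list comes from a single library. Deposited for each peak were −log10 of the authors' p and q, a fold over local background, which is a ratio, and a whole-number score. They describe peaks within 1 list, and the lists hold no reads or counts.

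Bases under peaks per window were compared by two-sided exact permutation tests. Regions were the merged union of a mark's peaks, with overlap from 1 bp. Limma 3.58.1 in R 4.3.3 was run over bins of 10 kb with a covered base in 3 or more H3K27ac, or 2 or more H3K27me3, libraries, on log2(bases + 100), centred on the median of bins covered in every library, with trended, robust variances, Benjamini-Hochberg adjustment and a threshold of 0.05. Pileup and local background were read back from fold and −log10 p under a Poisson model. Pileups came out as whole fragments for at least 99.996% of the peaks with −log10 p below 60 in every H3K27ac list, within 0.01 in −log10 p, and precision is limited by these depths. The genome-wide pileup was the lowest local background of a list. Depth in fragments per kb was that value over the fragment length, taken as the narrowest peak. The depth of the background library was inferred from the step between local background values.

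Named were the 4 regions with the most covered bases per window, regions whose genotypes did not overlap or that were found in 1 genotype only, and the bin with the lowest p per window. The members and lists were chosen with earlier results of these data known. Planned counts of other pathway genes and cell type markers needed an mm39 annotation and were not made.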

Additional observations from a re-analysis of the deposited data

How the results depend on the processing

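The differences in covered bases of the 3 windows, and the changes of the bins with the lowest p in each, kept their direction under the alternatives tried. Other bins did not: the sign turned in 2 of 7 at Tnfrsf1b, 2 of 4 at Tnfrsf4 with Tnfrsf18 and 4 of 6 at Tnfrsf9 under at least 1 of 13. For the windows, no bin passed the limma threshold under any of 14 alternatives. The difference in H3K27ac bases (knockout minus control) at Tnfrsf4 with Tnfrsf18, Tnfrsf9 and Tnfrsf1b was 3680, 2319 and -3839 after cutting all lists to one length, 3179, 2486 and -6547 with windows widened by 10 kb, 2738, 2561 and -3876 with windows narrowed by 5 kb, and 3190, 2039 and -5509 with peaks of −log10 p of 10 or more, a cut chosen after seeing the data. The exact permutation p at Tnfrsf1b was 0.1 for the widened windows and for that cut. Leaving out 1 library gave 1676 to 5112, 752 to 3888, and -6723 to -3730 bases. H3K27me3 stayed at 0 in all alternatives, except for -8 bases in the widened Tnfrsf9 window. Regions in every list numbered 12 to 14, against 15.

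The genome-wide limma counts that serve as background moved more, and the cause was not tested. H3K27ac bins lower in knockouts, 435 in the report, were 26 with a pseudocount of 10 bases, 269 with no filter, 737 with 5 kb bins, and 0 to 974 with 1 library left out (974 without knockout 1, and 0 without control 2 or control 3). Bins higher, 112 in the report, were 4 with a pseudocount of 10 and 169 with 1000, 58 with no filter, 254 once lists were cut to one length, 207 in 5 kb bins, and 0 to 245 with 1 library left out. At an unadjusted p under 0.05 limma still had 1567 lower and 868 higher bins without control 2. H3K27me3 bins lower, 9, were 1 with a pseudocount of 10, 0 with 1000, 4 with no filter, 0 with no centring, 330 with quantile normalization, 0 once lists were cut to one length, 3 in 5 kb bins, and 0 to 725 with 1 library left out. Bins higher, 54, were 0 with either pseudocount, 11 with no filter, 0 with no centring or with lists of equal length, 29 with 5 kb bins, and 27 to 5454 with 1 library left out (725 and 5454 without control 2), where the lone library of a genotype is assumed to vary like the others. With lists of equal length limma had 559 lower and 177 higher H3K27me3 bins at an unadjusted p under 0.05.

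Whether replicate numbers pair the libraries was not settled. Same-numbered H3K27ac libraries had correlations of deviations of 0.246, 0.0530 and 0.0102, and differently numbered ones ran from -0.213 to 0.177. In each window every knockout differed in H3K27ac bases from the same-numbered control in the direction of the means. With the replicate block, 29 H3K27ac bins were lower and 3 higher, 9 and 62 for H3K27me3, and the window differences had an exact permutation p of 0.25, the smallest 3 pairs allow.

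The lists limit what can be said. They give the length of enrichment, and its amount only at the summits of listed peaks, as read back from fold and −log10 p. Windows were placed by coordinates rather than gene models, and 3 or 2 libraries per genotype cannot reach p under 0.05 in the exact permutation test.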
